A study of Homo sapiens with 37 samples.

Results

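The interferon-stimulated genes described here are 40 genes that cells switch on when interferon reaches its receptor. They are a list of well-known antiviral effectors, sensors and ubiquitin-like modifiers. All 40 were found among the 57773 Ensembl gene identifiers of the files. RNA from 37 human libraries in 17 groups had been sequenced to compare cells made senescent by radiation, doxorubicin, an oncogene or repeated division with their controls. Senescence is a lasting arrest of division that follows damage, oncogene activity or exhausted replication.

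The cells were human aortic endothelial cells (HAEC), umbilical vein endothelial cells (HUVEC) and the diploid lung fibroblast strains IMR-90 and WI-38. HAEC at a population doubling level (PDL, the number of divisions a culture has gone through) of 4 to 6 were untreated (2 libraries) or had received 4 Gy of ionizing radiation (3 libraries). HUVEC at PDL 3 to 5 were untreated or had received 4 Gy (3 libraries each). IMR-90 were proliferating at PDL 15, irradiated with 10 Gy at PDL 15, or replicatively exhausted at PDL 52 (2 libraries each), and both IMR-90 comparisons use the same proliferating libraries. WI-38 gave 10 groups of 2 libraries in 2 sets. The first set, at PDL 25, holds doxorubicin (2 µg/mL for 24 h) with its control, and a lentivirus carrying the constitutively active HRASG12V with an empty vector, both of these at a multiplicity of infection of 10 with 1 µg/mL puromycin. The second set holds a repeat of the doxorubicin treatment with its control, 10 Gy with its control, all at PDL 25, and replicatively exhausted cells at PDL 53 to 55 with proliferating cells at PDL 25. Neither the promoter that drives HRAS nor the time from treatment to harvest is given. The labels do not say that libraries of a group came from separate cultures, so each p-value reflects the spread of these libraries alone, which may be technical.

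Type I interferons bind a receptor made of IFNAR1 and IFNAR2. The kinases JAK1 and TYK2 then phosphorylate transcription factors such as STAT2, which binds IRF9 in the complex ISGF3. ISGF3 binds the interferon-stimulated response element (ISRE) in promoters. The interferons themselves are made when sensors such as cGAS with STING, RIG-I (RIGI) or MDA5 (IFIH1) meet DNA or RNA in the cytoplasm, which is a known late feature of many senescent cells.

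The letters of the ISRE are shown for 7 members whose levels carry the comparisons: ISG15 and SAMD9 were higher with HRAS, IFI6 and IFI44L had large rises with other triggers, and EPSTI1, GBP1 and PARP9 were lower with HRAS. Each run is the 250 bases before the start of the gene, 5′ to 3′ on the strand of the gene, from RefSeq on GRCh38.p14. Capitals mark the searched motif, GAAA followed by any 2 bases and a further GAAA, or its reverse complement on the other strand (TTTC, any 2 bases, TTTC). Matches may overlap, as they do in ISG15. The counts were made on hg19, so these coordinates do not belong to the counting.

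ISG15 (chr1:1013247-1013496, plus strand): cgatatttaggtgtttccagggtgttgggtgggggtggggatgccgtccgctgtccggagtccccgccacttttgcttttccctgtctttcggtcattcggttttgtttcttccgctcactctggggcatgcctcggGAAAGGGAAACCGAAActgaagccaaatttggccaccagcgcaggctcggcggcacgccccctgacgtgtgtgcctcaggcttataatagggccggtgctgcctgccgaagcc
SAMD9 (chr7:93117980-93118229, minus strand): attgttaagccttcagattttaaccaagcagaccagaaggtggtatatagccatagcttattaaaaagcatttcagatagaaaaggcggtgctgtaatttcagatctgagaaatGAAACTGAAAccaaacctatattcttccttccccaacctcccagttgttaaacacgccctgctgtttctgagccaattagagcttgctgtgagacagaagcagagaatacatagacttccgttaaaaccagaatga
IFI6 (chr1:27672193-27672442, minus strand): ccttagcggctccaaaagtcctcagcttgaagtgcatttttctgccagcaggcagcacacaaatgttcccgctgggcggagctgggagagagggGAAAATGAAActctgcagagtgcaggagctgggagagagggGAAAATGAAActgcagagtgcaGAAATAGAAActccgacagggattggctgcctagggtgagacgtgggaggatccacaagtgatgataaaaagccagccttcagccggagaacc
IFI44L (chr1:78620198-78620447, plus strand): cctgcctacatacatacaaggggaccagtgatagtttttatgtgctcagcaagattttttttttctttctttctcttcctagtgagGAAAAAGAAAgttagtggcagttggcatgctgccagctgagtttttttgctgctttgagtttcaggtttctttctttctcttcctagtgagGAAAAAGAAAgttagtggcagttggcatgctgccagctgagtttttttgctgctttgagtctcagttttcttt
EPSTI1 (chr13:42992242-42992491, minus strand): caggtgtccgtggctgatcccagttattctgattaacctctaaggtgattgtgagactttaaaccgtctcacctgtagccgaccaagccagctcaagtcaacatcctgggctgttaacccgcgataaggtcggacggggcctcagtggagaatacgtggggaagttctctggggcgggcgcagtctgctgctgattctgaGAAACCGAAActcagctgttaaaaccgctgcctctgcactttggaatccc
GBP1 (chr1:89065209-89065458, minus strand): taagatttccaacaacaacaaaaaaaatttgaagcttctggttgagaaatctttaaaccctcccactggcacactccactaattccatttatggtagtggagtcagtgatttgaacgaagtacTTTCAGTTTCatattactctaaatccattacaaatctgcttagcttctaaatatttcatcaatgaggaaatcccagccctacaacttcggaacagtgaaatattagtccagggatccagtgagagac
PARP9 (chr3:122564301-122564550, minus strand): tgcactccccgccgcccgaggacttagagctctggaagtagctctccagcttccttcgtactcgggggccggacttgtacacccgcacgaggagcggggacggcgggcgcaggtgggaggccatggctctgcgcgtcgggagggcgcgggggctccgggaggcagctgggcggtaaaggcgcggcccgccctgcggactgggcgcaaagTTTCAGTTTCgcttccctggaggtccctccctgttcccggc

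The motif starts at -113 and -107 from the start site in ISG15, -136 in SAMD9, -156 and -115 as the first 2 of 3 in IFI6, -164 and -73 in IFI44L, -50 in EPSTI1, -127 in GBP1 and -41 in PARP9. PARP9 and its neighbour DTX3L are read in opposite directions from starts close together on chromosome 3, and the match in PARP9 covers the same bases as the match at -6 in the window of DTX3L. Of the 40 members, 34 had at least 1 window of 300 bases (250 before to 50 after the start) in the table, and 25 of these, 73.5%, held the motif on either strand. Among the 27305 genes with such a window, 4.38% held it. The 9 members with a window and no match were CMPK2, HERC6, IFI35, IRF9, OAS1, SAMD9L, STAT2, UBE2L6 and XAF1. With HRAS, 15 of the 25 members with the motif were lower and 3 higher than with the empty vector, and 5 of the 9 without it were lower. In irradiated WI-38, 21 of the 25 and 8 of the 9 were higher. No difference between the members with and without the motif was tested.

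Library totals ran from 102293388 to 370996204 counts. Protein-coding genes took 50.7% to 66.9% of the counts in the first 25 libraries and 82.0% to 91.1% in the second WI-38 set, so levels are not set against each other across that line. Levels are given in CPM, the count scaled to the effective size of its library within its own set, so any level named beside one of another set is a description. HRAS stood at 36 and 47 CPM with the empty vector and at 1944 and 1988 CPM in the libraries labelled HRASG12V, a log2 fold change of 5.56 ± 0.17 (SE, edgeR quasi-likelihood test, adjusted p = 1.54e-09). The 9 endothelial markers summed to 1593 to 2127 CPM in endothelial libraries and to 49.1 to 308 CPM in fibroblasts. Among them CDH5, a cadherin of endothelial junctions, averaged 396 to 488 CPM in the endothelial groups and at most 2.46 CPM in fibroblast groups, whereas TEK averaged 159 to 178 CPM in the endothelial groups and up to 305 CPM in fibroblast groups. The 10 fibroblast markers together reached at most 55.2 CPM in any endothelial library and at least 1055 CPM in any fibroblast library. They summed to 6138 to 7174 CPM with the empty vector and to 1055 to 1168 CPM with HRAS, all 10 at 1 CPM or more in both. In IMR-90 they went from 14261 to 15021 CPM in proliferating cells to 3173 to 3248 CPM after radiation and 4818 to 5168 CPM in late passage. The endothelial sum there went from 251 to 253 CPM to 95.9 to 96 CPM and 73.1 to 105 CPM, and that of 6 epithelial markers from 13 to 13.6 CPM to 65 to 68.4 CPM and 60.8 to 72.8 CPM. TEK made up most of this endothelial sum, at means of 237, 81.6 and 76.2 CPM, while EGFL7 rose (4.42, 6.41 and 7.5 CPM). The epithelial rise lay in the keratins KRT8, KRT18 and KRT19. EPCAM was at 0.561, 0.535 and 0.376 CPM, CDH1 at most 0.0975 CPM and ESRP1 at 0. With the empty vector and HRAS the epithelial sums were 49.2 to 59.8 and 54.7 to 58.8 CPM, and the endothelial sums 74.8 to 77.5 and 49.1 to 53.8 CPM. The lower endothelial sum came from TEK alone, at means of 64.2 CPM with the empty vector and 9.93 CPM with HRAS. Every other endothelial marker had a higher mean with HRAS, such as EGFL7 (10.1 and 23.9 CPM) and ROBO4 (0.932 and 12.8 CPM). The 9 leukocyte markers, genes of cells that respond strongly to interferon, summed to 7.5 to 62.9 CPM over all libraries. The part of these marker levels in the results was not tested. In such bulk RNA, fewer cells that express a gene and less of its RNA per cell cannot be told apart.

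The interferon-stimulated genes rose in 6 of the 9 comparisons of a treated group with its own control and fell with HRAS. They were split in irradiated IMR-90 and more often lower than higher in late-passage IMR-90. A member counts as higher or lower where its adjusted p in the edgeR fit over all genes was below 0.05. In irradiated HAEC 36 of 40 members were higher and 2 lower, against a background of 19.7% of all genes tested higher and 19.9% lower. HUVEC had 28 of 39 higher and 2 lower (background 18.7% and 20.1%; MX2 was too low to test). IMR-90 had 18 higher and 13 lower after radiation (background 26.6% and 22.5%) and 9 higher and 18 lower in late passage (background 26.6% and 23.5%). In the first WI-38 set doxorubicin gave 18 higher and 2 lower (background 13.6% and 13.2%), while HRAS gave 4 higher and 22 lower (background 27.1% and 18.9%). The 4 higher became 7 without empty vector replicate 1 and 2 in a fit of these 2 groups alone. In the second set the doxorubicin repeat gave 27 higher (background 3.18%), radiation 35 higher (background 8.89%) and late passage 31 higher (background 5.8%), with 0 members lower by edgeR in each. The backgrounds for lower genes there were 2.26%, 6.09% and 6.82%. At an unadjusted p below 0.05, 0, 0 and 2 members were lower in these, and DESeq2 also called 0 lower in each.

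**Figure D1:**
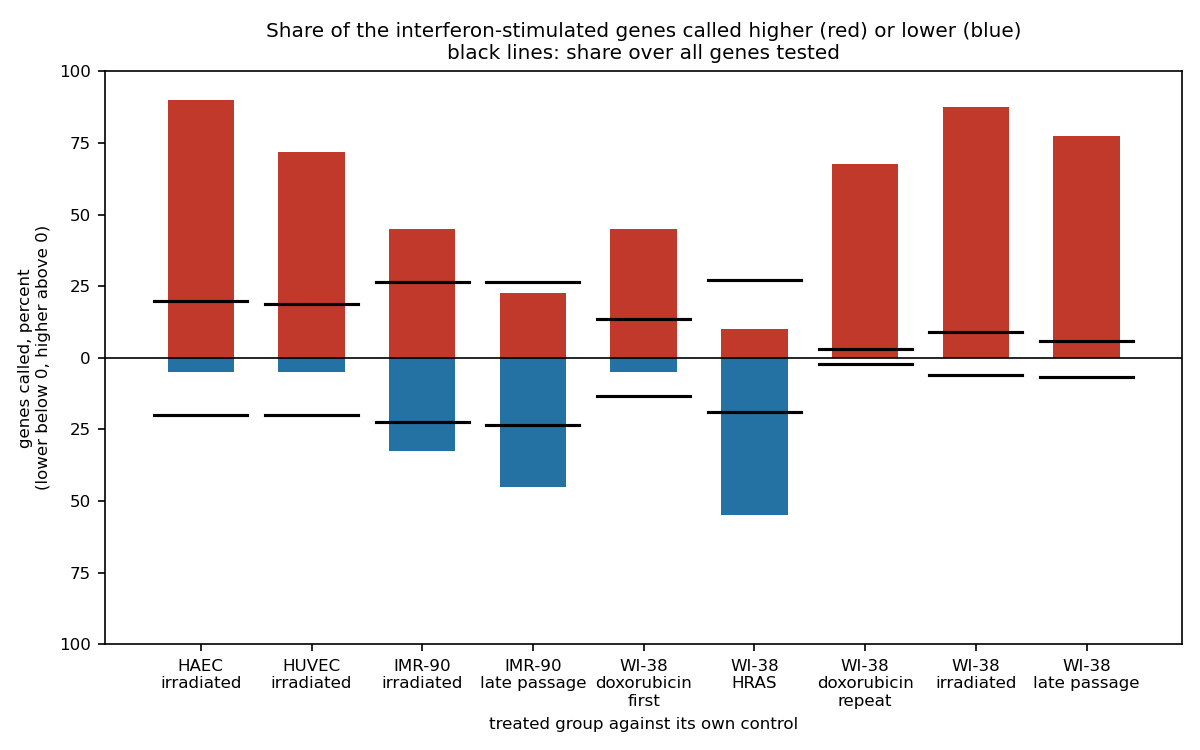
Percent of the tested interferon-stimulated genes called higher (red, above 0) or lower (blue, below 0) in each of 9 comparisons of a treated group with its own control, with black lines at the percent of all tested genes called in that direction. The HRAS bar reaches farther below 0 than above it, with 22 members lower and 4 higher, and the irradiated HAEC and irradiated WI-38 bars reach highest, with 36 and 35 members higher.

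The sum of the 40 members in CPM shows the same split in total level. It stood at 439 and 450 CPM with the empty vector and at 255 and 244 CPM with HRAS. The control and doxorubicin cells of the same set had 455 ± 4.76 and 583 ± 24 CPM (mean ± SD, n = 2 each). Within the second WI-38 set radiation took the sum from 763 ± 10.2 to 3056 ± 127 CPM (n = 2 each). In IMR-90 the sum was 715 ± 5.34 CPM in proliferating, 694 ± 28.5 in irradiated and 666 ± 32.2 in late-passage cells (n = 2 each), although single members there moved in both directions.

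**Figure D2:**
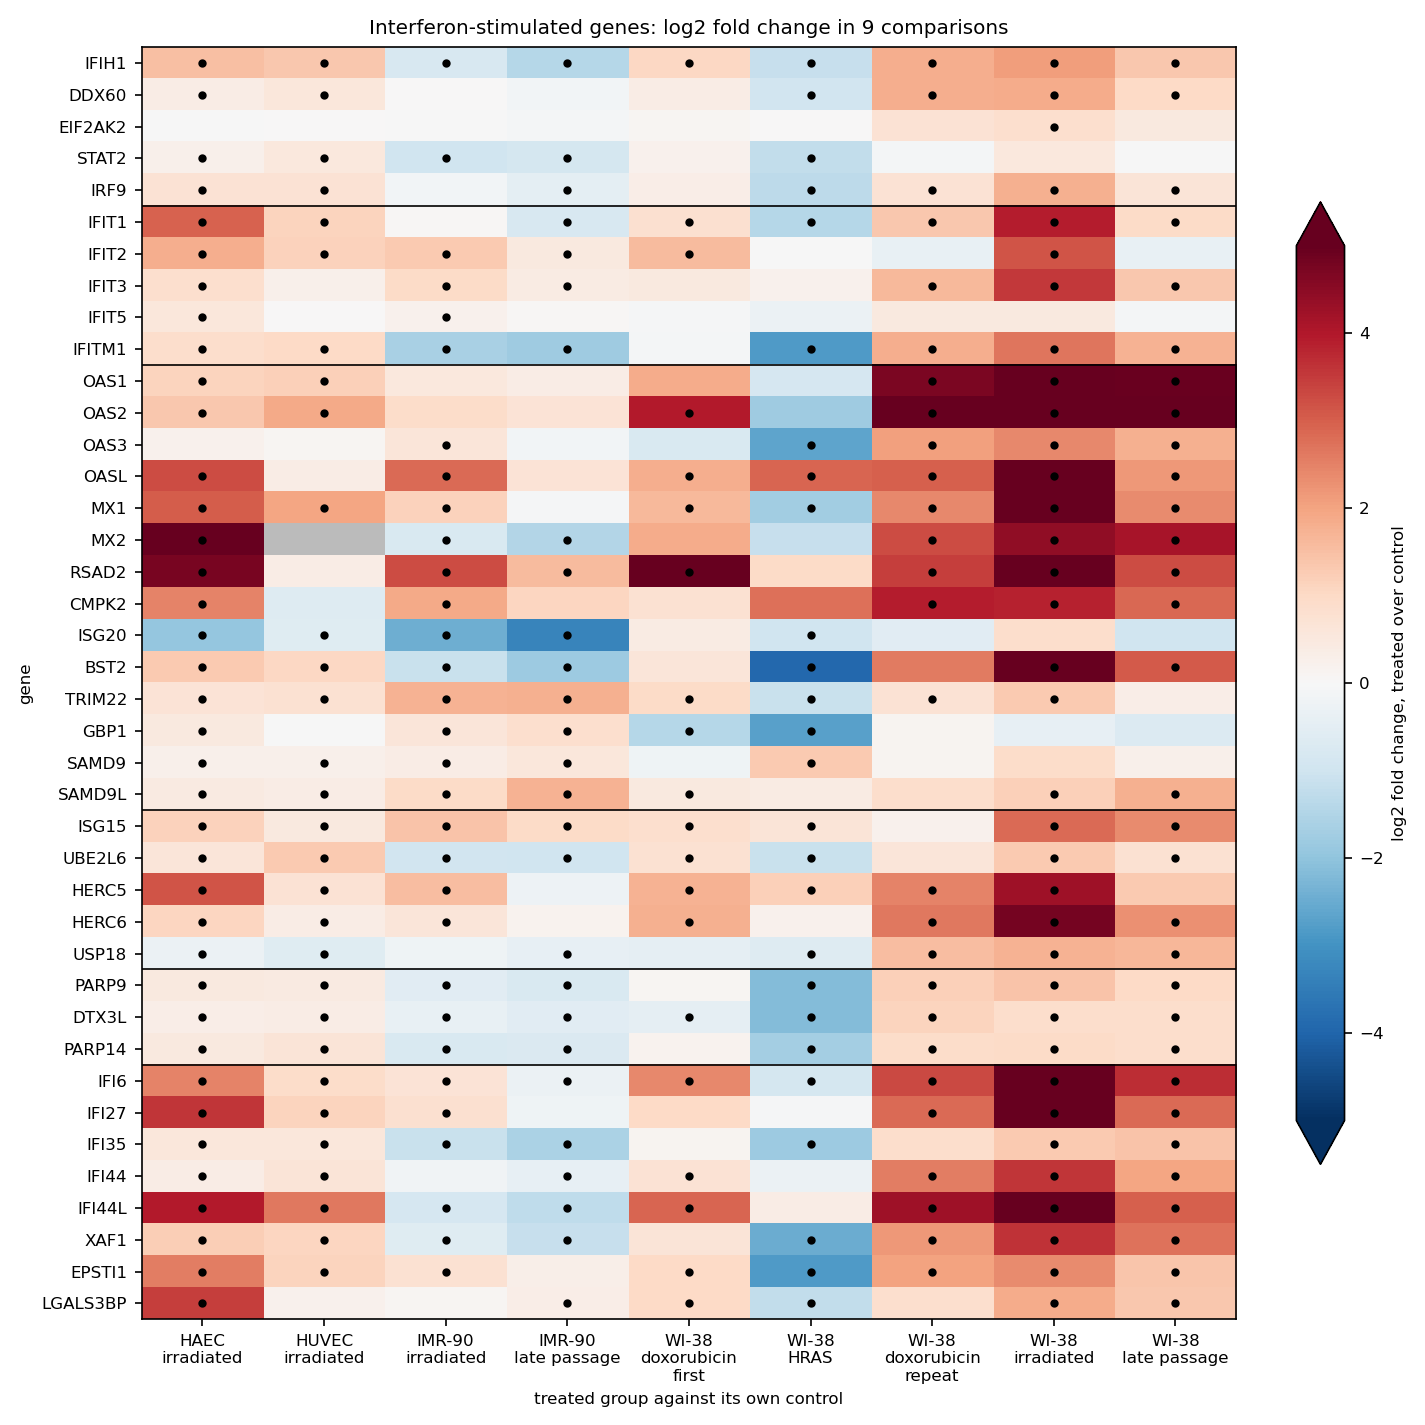
Heat map of the log2 fold change (colour; red higher, blue lower, clipped at 5 on either side) of the 40 interferon-stimulated genes (rows, grouped by role and divided by lines) in 9 comparisons (columns), with black dots on the members called and grey for the 1 not tested. The HRAS column holds 22 members called lower and 4 called higher, and the irradiated WI-38 column 35 called higher.

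In WI-38 carrying HRASG12V the median log2 fold change of the 40 members over the empty vector was -1.05, beside 0.07 over all genes tested. The fall ran through the signalling factors, the PARP9-DTX3L pair and several antiviral effectors, while ISG15, OASL, SAMD9 and HERC5 were higher. Another scaling, by protein-coding genes alone, moved the median over all genes from 0.07 to -0.18, and the split of all genes from 7957 higher and 5539 lower to 5598 higher and 7540 lower. The members were then 3 higher and 23 lower, with a median of -1.30.

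The transcription factor STAT2, which carries the activating domain of ISGF3, stood at 126 and 150 CPM with the empty vector and at 54.9 and 63.1 CPM with HRAS (log2 fold change -1.23 ± 0.13, edgeR adjusted p = 1.36e-05). IRF9, the DNA-binding part of the same complex, went from 17.7 and 21.9 to 7.42 and 8.62 CPM (-1.30 ± 0.15, adjusted p = 2.44e-05). So both HRAS libraries lay below both empty vector libraries for STAT2 and IRF9. Of the stretches of 31 bases in IRF9, 50.3% are shared with other genes, which leaves its counts uncertain. The RNA sensors IFIH1 (MDA5) and DDX60 were lower by -1.16 ± 0.39 and -0.97 ± 0.22, the call for IFIH1 ending without HRAS replicate 2 (-0.70, adjusted p = 0.18) or without empty vector replicate 1 (-0.67, adjusted p = 0.193). EIF2AK2 (PKR), a kinase that stops translation on double-stranded RNA, was at 34 and 21.7 CPM with the empty vector and 30.2 and 25.7 CPM with HRAS and was not called (0.01 ± 0.18).

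PARP9, DTX3L and PARP14 were lower in 3 of 3 (all genes 18.9%), with a median of -2.16. PARP9 and DTX3L form an ADP-ribosylating ubiquitin ligase that takes part in interferon signalling, and PARP14 is a related ADP-ribosyltransferase. DTX3L stood at 16 and 18 CPM with the empty vector and at 3.8 CPM in both HRAS libraries (-2.16 ± 0.14, edgeR adjusted p = 1.68e-07). PARP9 fell from 9.34 and 6.74 to 1.78 and 1.8 CPM (-2.17 ± 0.18). PARP14, the most abundant of the group, went from 32.6 and 30.4 to 10.6 and 8.95 CPM (-1.69 ± 0.14). Exons of PARP9 and DTX3L overlap on opposite strands, and no source used here says whether strand was used in counting, so their counts are not fully separate.

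Among the IFIT and IFITM genes, which bind foreign RNA or block viral entry, 2 of 5 were lower (all genes 18.9%). IFITM1 was at 4.51 and 6.06 CPM with the empty vector and at 0.615 and 0.872 CPM with HRAS (-2.84 ± 0.23, edgeR adjusted p = 1.13e-06), though 35.3% of its stretches of 31 bases are shared with other genes. IFIT1 went from 5.55 and 3.66 to 2.02 and 1.39 CPM (-1.43 ± 0.23). The neighbouring IFIT2, at 1.43 and 1.28 against 1.24 and 1.46 CPM, and IFIT3, at 3.53 and 2.05 against 3.34 and 3.2 CPM, had overlapping groups and were not called. IFIT5, at 12.5 and 6.35 against 9.19 and 6.06 CPM, was not called either.

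Of the 14 OAS, MX and other direct antiviral effectors 6 were lower and 2 higher (all genes 18.9% and 27.1%). GBP1, a guanylate-binding protein that attacks intracellular pathogens, had the smallest adjusted p of all members: it was at 22.3 and 17.1 CPM with the empty vector and at 3.12 and 2.94 CPM with HRAS (-2.70 ± 0.16, edgeR adjusted p = 1.03e-07). OAS3, a synthetase of the 2-5A signal that activates RNase L, went from 3.04 and 4.03 to 0.332 and 0.805 CPM (-2.65 ± 0.33). MX1, a GTPase that traps viral nucleocapsids, went from 1.63 and 2.9 to 0.815 and 0.531 CPM (-1.74 ± 0.30), and TRIM22 from 37.3 and 25.2 to 16 and 12.4 CPM (-1.13 ± 0.18). The groups were separate for these 4 genes. ISG20, an exonuclease of viral RNA, and BST2 (tetherin), which holds budding virions, were lower by -0.98 ± 0.25 and -3.93 ± 1.28. Both calls ended without HRAS replicate 2 (adjusted p = 0.0578 and 0.107), and BST2 was at 0.199 CPM or less in all 4 libraries. OAS1, OAS2, MX2, RSAD2 and CMPK2 lay at or below 0.185 CPM in all 4 libraries and were not called.

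OASL and SAMD9 were the effectors called higher. OASL, an OAS-like protein without synthetase activity that helps RIG-I signal, was at 0.468 and 0.526 CPM with the empty vector and at 3.68 and 3.85 CPM with HRAS (2.92 ± 0.26, edgeR adjusted p = 2.52e-06). In the first 25 libraries OASL reached at most 2.08 CPM outside the HRAS pair. SAMD9, a restriction factor of poxviruses, rose from 4.08 and 3.07 to 9.99 and 7.55 CPM (1.29 ± 0.19, adjusted p = 0.000186). Its neighbour and close relative SAMD9L, at 5.83 and 4.81 against 7.98 and 6.16 CPM, missed the threshold (0.41 ± 0.16, adjusted p = 0.0568).

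The ISG15 conjugation genes were split, 2 higher and 2 lower of 5 (all genes 27.1% and 18.9%). ISG15 itself, a ubiquitin-like protein, was at 25.8 and 33.7 CPM with the empty vector and at 46.8 and 45.7 CPM with HRAS (0.64 ± 0.15, edgeR adjusted p = 0.00343). Its call ended in a fit of all 37 libraries (0.49, adjusted p = 0.148) and in one of these 2 groups alone (0.49, adjusted p = 0.0605). HERC5, the ligase that attaches ISG15, was at 0.143 and 0.114 against 0.332 and 0.266 CPM (1.21 ± 0.43, adjusted p = 0.0365), a call that 6 alternatives ended. UBE2L6, the conjugating enzyme between them, went the other way, from 12.1 and 13.2 to 5.79 and 5.86 CPM (-1.12 ± 0.15). USP18, the protease that removes ISG15 and also damps the receptor, was lower by -0.64 ± 0.16, a call that ended without HRAS replicate 2 (-0.52, adjusted p = 0.0668). HERC6 was not called (0.22 ± 0.20). Of the stretches of 31 bases in USP18, 30.8% are shared with other genes.

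Of the 8 IFI and other interferon-induced genes 5 were lower (all genes 18.9%). EPSTI1, a gene of epithelial-stromal interaction, went from 2.53 and 2.25 to 0.511 and 0.149 CPM (-2.82 ± 0.36), and XAF1, a pro-apoptotic partner of XIAP, from 0.85 and 0.824 to 0.152 and 0.149 CPM (-2.47 ± 0.31), with 36.6% of the stretches of 31 bases in XAF1 shared with other genes. IFI35 was lower by -1.83 ± 0.20, the secreted glycoprotein LGALS3BP by -1.23 ± 0.15, and the mitochondrial survival protein IFI6 by -0.87 ± 0.19, with 11.9 and 17.3 against 8.39 and 7.54 CPM. IFI27, IFI44 and IFI44L were at 1.27 CPM or less in all 4 libraries and were not called.

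**Figure D3:**
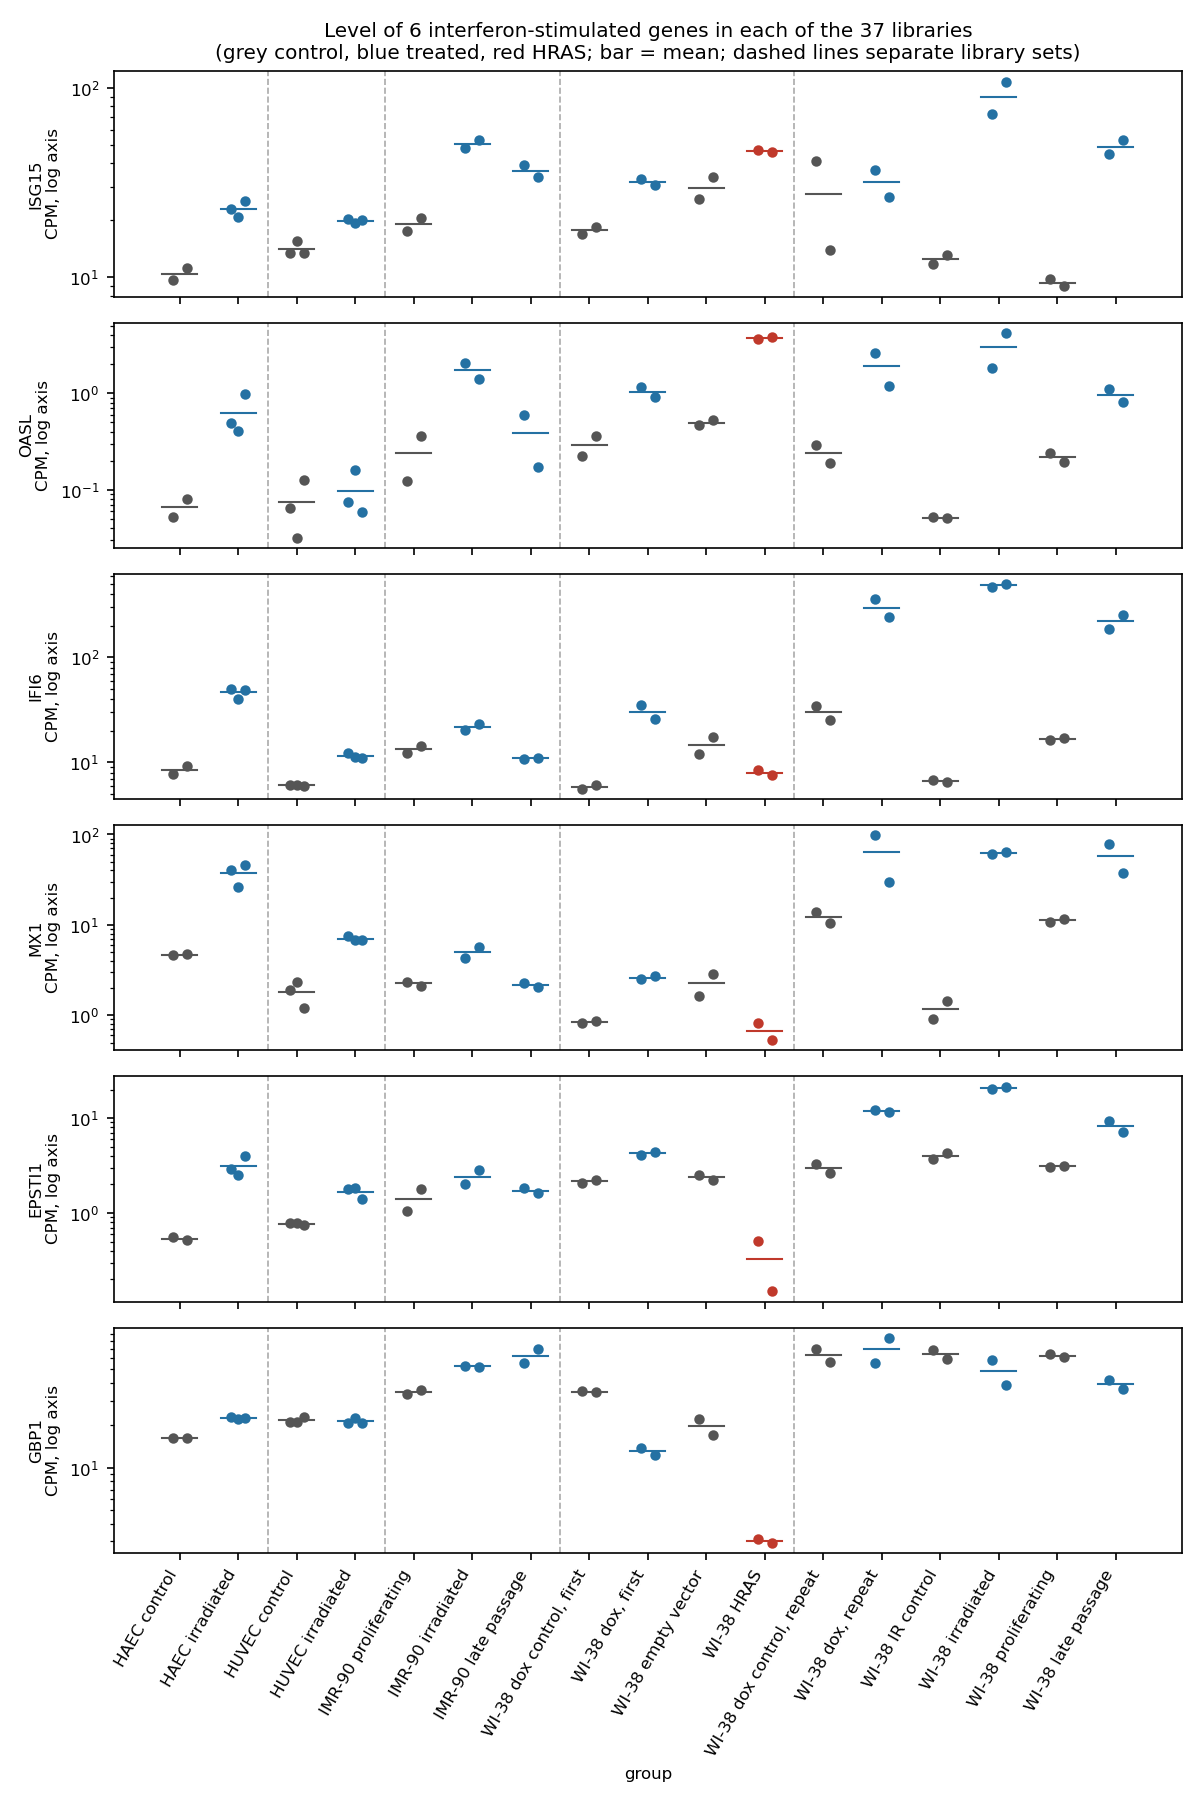
Level in CPM (vertical log axes) of ISG15, OASL, IFI6, MX1, EPSTI1 and GBP1 in each of 37 libraries (points) by group, with the group mean as a bar, controls in grey, treated groups in blue and HRAS in red; dashed lines separate sets of libraries. The 2 HRAS points lie above the empty vector points for ISG15 and OASL and under them for IFI6, MX1, EPSTI1 and GBP1, where GBP1 is at 3.12 and 2.94 CPM.

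The empty vector cells were themselves unlike the doxorubicin control of the same set, with 11 members higher and 12 lower (background 15.6% and 21.9%). MX1 was higher by 1.42 ± 0.29, IFI6 by 1.33 ± 0.20, LGALS3BP by 0.93 ± 0.15, ISG15 by 0.74 ± 0.15 and STAT2 by 0.66 ± 0.13 in log2. IFIT5 was lower by -1.66 ± 0.27, SAMD9 by -1.50 ± 0.19, IFIT1 by -1.40 ± 0.21 and IFIT3 by -1.38 ± 0.22. The count of 11 higher became 6 without doxorubicin control replicate 1. The groups differ in vector, puromycin and doxorubicin vehicle together, which cannot be told apart. Here the doxorubicin control is called untreated because it received neither vector nor doxorubicin. Set against this untreated control instead, HRAS cells had 3 members higher and 23 lower (background 24.2% and 22.4%). SAMD9 was then not higher (-0.21 ± 0.19, edgeR adjusted p = 0.399), whereas OASL (3.69 ± 0.27) and ISG15 (1.38 ± 0.15) were. RSAD2, an enzyme (viperin) that makes a chain-terminating nucleotide, had no count in either control library and was at least 2.12-fold higher, with 3 counts per library as the floor. MX1 (-0.32 ± 0.30), IFI6 (0.46 ± 0.20) and LGALS3BP (-0.30 ± 0.15) were not called against the untreated control, and all 5 IFIT and IFITM genes were lower. Against either control, PARP9, DTX3L, PARP14, GBP1, IFITM1, EPSTI1, OAS3 and XAF1 were lower with HRAS.

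The difference between the HRAS response and each other response was tested in 1 fit for each of 8 pairs. All 8 share the HRAS and empty vector libraries and are not independent. Against doxorubicin in the same set, 27 members were lower in the HRAS response and 2 higher, with a median difference of -1.79 in log2 (background 14% lower and 21.6% higher; median over all genes 0.07). Against the doxorubicin repeat 29 were lower and 0 higher (background 8.6% and 10.1%; unadjusted p below 0.05 in 1 higher; DESeq2 called 1 higher), against irradiated WI-38 36 and 0 (background 8.48% and 10.6%; unadjusted 0, DESeq2 0), and against late-passage WI-38 31 and 0 (background 8.29% and 8.76%; unadjusted 1, DESeq2 0). The HRAS and second-set libraries differ in set as well as in trigger in these 3. The radiation control also had a lower member sum (763 CPM) than the doxorubicin control (1225 CPM) and proliferating cells (1300 CPM) of its set. The pairs with HAEC, HUVEC and IMR-90 differ in cell type and library set as well as in trigger, which cannot be told apart there. Against irradiated HAEC 32 were lower and 2 higher (background 17.8% and 23.8%) and against irradiated HUVEC 26 and 3 (background 18.2% and 25%). The smallest contrasts were with IMR-90, at 22 lower and 3 higher for radiation (background 15.1% and 20.5%) and 17 lower and 5 higher for late passage (background 16.2% and 22%), with medians of -0.86 and -0.51.

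**Figure D4:**
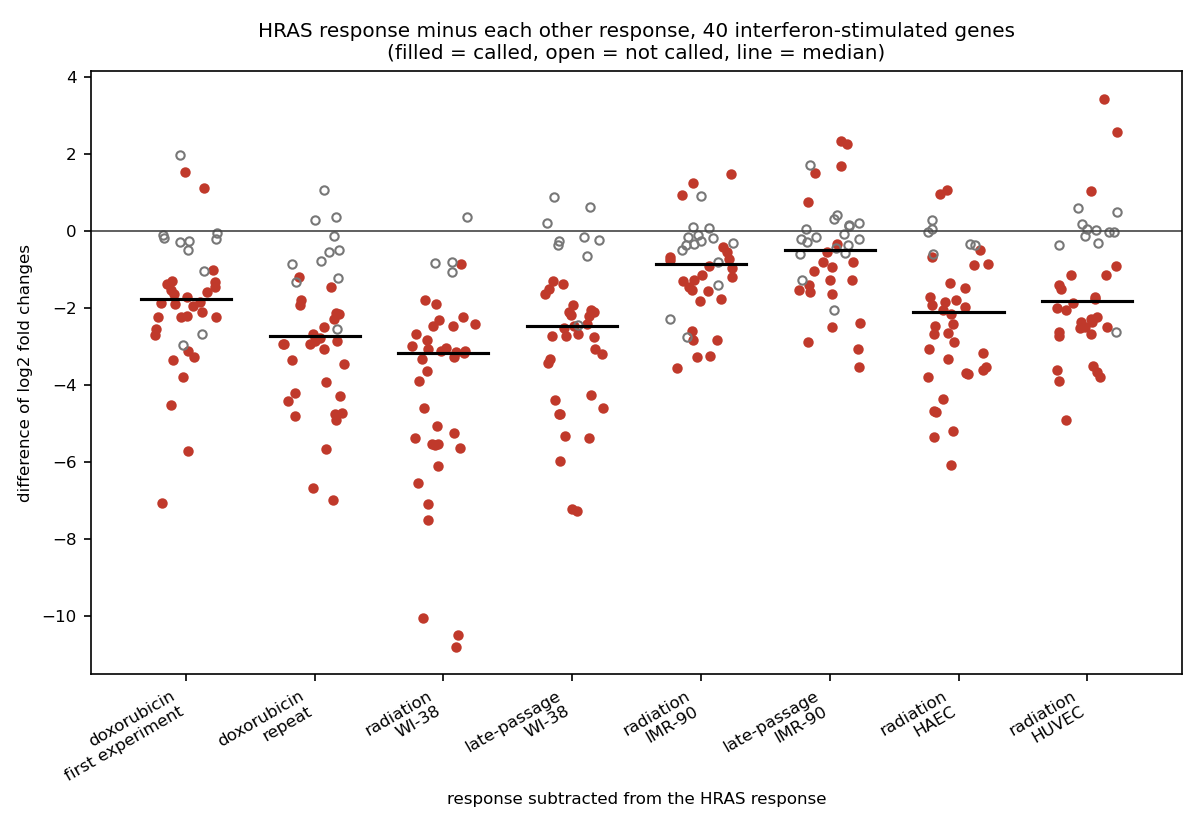
Difference between the log2 fold change with HRAS in WI-38 and that in each other comparison (vertical axis) for the interferon-stimulated genes (points, filled where called), with the median as a line, for 8 pairs of comparisons. Pairs with HAEC, HUVEC and IMR-90 differ in cell type as well as in trigger. The medians run from -0.51 against late-passage IMR-90 to -3.17 against irradiated WI-38, and few filled points lie above 0.

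PARP9, DTX3L and PARP14 were lower in the HRAS response in 3 of 3 in each of the 8 pairs. Of all genes, 8.29% to 18.2% were lower in these pairs. DTX3L differed by -3.36 ± 0.27 from the doxorubicin repeat, -3.19 ± 0.26 from late-passage WI-38, -2.52 ± 0.12 from irradiated HUVEC, -2.48 ± 0.12 from irradiated HAEC, -1.77 ± 0.13 from irradiated IMR-90 and -1.59 ± 0.13 from late-passage IMR-90. The 8 IFI and other interferon-induced genes were lower in 7 against the first doxorubicin experiment, in 8 against each of the 3 second-set responses and each endothelial response, and in 5 and 4 against the IMR-90 responses. IFI6 differed in WI-38 by -7.10 ± 0.35 from radiation, -4.76 ± 0.34 from late passage, -4.28 ± 0.33 from the doxorubicin repeat and -3.27 ± 0.28 from the first doxorubicin experiment. The members higher in the HRAS response included SAMD9, by 1.52 ± 0.27 against the first doxorubicin experiment, 1.06 ± 0.18 against HAEC and 1.04 ± 0.18 against HUVEC. These differences take the empty vector as the base, which had SAMD9 lower (-1.50 ± 0.19) and IFI6 higher (1.33 ± 0.20) than the untreated control. Against that control, HRAS cells did not have SAMD9 called higher or IFI6 called lower. ISG20 was higher by 2.34 ± 0.27 against late-passage and 1.48 ± 0.26 against irradiated IMR-90, where the gene itself fell more than with HRAS. Of the 22 members lower with HRAS, 19 were higher in irradiated WI-38, which is 86.4% of the 22 and 54.3% of the 35 of 40 members higher there. The share of the 22 was thus close to that of all 40 members and does not set them apart. In irradiated IMR-90 6 of the 22 were higher (27.3% of the 22 and 33.3% of the 18) and 11 lower, and in late-passage IMR-90 3 were higher and 15 lower. Of all 40 members, 18 were higher and 13 lower in irradiated IMR-90, and 9 higher and 18 lower in late passage.

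Irradiated WI-38 gave the largest rises, in 35 of 40 members with a median of 2.53 (all genes -0.06). Its control had a member sum of 763 CPM, below the doxorubicin control (1225 CPM) and proliferating cells (1300 CPM) of the same set. The treated sums were 3056 CPM after radiation, 2702 CPM in the doxorubicin repeat and 2625 CPM in late passage. The part of the low control in the larger rises was not tested. OAS1 went from 0.0462 and 0.0287 CPM in the control to 31.7 and 41.6 CPM (9.89 ± 0.46, edgeR adjusted p = 1.59e-08), OAS2 from 0.0867 and 0.205 to 50.7 and 37.3 CPM (8.26 ± 0.47) and RSAD2 from 0.0491 and 0.0144 to 5.55 and 6.44 CPM (7.49 ± 0.54). These began near 0 in the control, so their folds rest on few control reads. IFI6 rose from 6.77 and 6.48 to 469 and 500 CPM (6.19 ± 0.28) and UBE2L6 from 61.4 and 68 to 148 and 175 CPM (1.32 ± 0.18). All 5 ISG15 conjugation genes, all 3 of the PARP9-DTX3L group and all 8 IFI and other genes were higher (all genes 8.89%). STAT2 (0.54 ± 0.21; it was higher in both endothelial types and lower in 3 of the 9 comparisons), IFIT5, ISG20, GBP1 (-0.40 ± 0.24) and SAMD9 were the 5 not called. Of the 9 comparisons with a control, EIF2AK2 was called here alone (17.1 and 18.6 to 36.7 and 27.8 CPM; 0.85 ± 0.20), and the call ended without single libraries.

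Doxorubicin, a topoisomerase poison that breaks DNA, raised 18 members in the first experiment. IFI44L went from 0.388 and 0.431 to 3.45 and 2.77 CPM (2.92 ± 0.28, edgeR adjusted p = 1.19e-05), IFI6 from 5.58 and 6.03 to 35.1 and 26 CPM (2.4 ± 0.20) and OASL from 0.222 and 0.359 to 1.15 and 0.911 CPM (1.82 ± 0.27). RSAD2, whose exons overlap those of CMPK2 on the opposite strand so that reads of the pair may not be separate, had no count in either control and 0.23 and 0.199 CPM after doxorubicin, at least 11.8-fold higher. GBP1 fell, from 35 and 34.4 to 13.9 and 12.3 CPM (-1.41 ± 0.15), so it was lower with doxorubicin as well as with HRAS in this set. DTX3L was the other member lower (-0.44 ± 0.13), a call that ended without any single one of the 4 libraries (adjusted p 0.108 to 0.209).

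In the doxorubicin repeat 27 members were higher, with a median of 1.72 (all genes 0.04). OAS2 rose from 1.46 and 1.67 to 70.6 and 40.1 CPM (5.14 ± 0.40, edgeR adjusted p = 5.5e-06), OAS1 from 1.08 and 0.854 to 33.7 and 17 CPM (4.71 ± 0.34) and IFI44L from 3.45 and 3.93 to 96.6 and 40.8 CPM (4.22 ± 0.53). The first treated library lay above the second in 35 of the 40 members, with sums that averaged 2702 ± 539 CPM. ISG15 was not called: its 2 controls, at 41.2 and 13.9 CPM, lay on either side of the treated 37 and 26.6 CPM. GBP1 was not called here (0.15 ± 0.24), and the 3 PARP9-DTX3L genes were higher.

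Late-passage WI-38 had 31 members higher, with a median of 1.42 (all genes 0.01). OAS2 rose from 1.73 and 1.79 in proliferating cells to 92 and 51.2 CPM (5.35 ± 0.40, edgeR adjusted p = 1.12e-06), OAS1 from 0.818 and 0.779 to 28.4 and 20.6 CPM (4.94 ± 0.35) and MX2 from 0.657 and 0.407 to 11.8 and 7.08 CPM (4.14 ± 0.37). SAMD9L reached 169 and 97.6 CPM from 40 and 38.5 CPM (1.76 ± 0.34). The first late-passage library lay above the second in 31 of the 40 members. Calls in the sensing and PARP9-DTX3L groups were close to the threshold, with adjusted p from 0.0144 to 0.0423, and IFIH1, DDX60, IRF9, PARP9, DTX3L and PARP14 each lost their call in 3 of the alternatives.

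In irradiated HAEC the members not called were OAS3 (0.21 ± 0.10) and EIF2AK2 (-0.03 ± 0.04), and the median of all 40 was 0.98 (all genes 0.01). IFI44L went from 1.16 and 1.87 to 24.6, 16 and 27.3 CPM (3.96 ± 0.20, edgeR adjusted p = 1.79e-12), IFI27 from 3.61 and 3.79 to 52.2, 37 and 43.6 CPM (3.58 ± 0.11) and LGALS3BP from 0.421 and 0.312 to 4.26, 3.64 and 4.34 CPM (3.44 ± 0.17). MX1 rose from 4.66 and 4.75 to 40.8, 26.2 and 46.5 CPM (3.01 ± 0.17). The second irradiated library was the lowest of the 3 for each of these 4 genes and still above both controls. ISG20 fell from 6.47 and 6.75 to 1.84, 1.53 and 1.83 CPM (-1.93 ± 0.11), and USP18, at 26.9 and 27.5 against 21.8, 22.2 and 23.3 CPM, by -0.28 ± 0.05.

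In irradiated HUVEC the median log2 fold change of the tested members was 0.55 (all genes 0.01), and the difference from HAEC was not tested. IFI44L went from 0.868, 1.32 and 0.872 to 6.32, 6.18 and 6.63 CPM (2.65 ± 0.13, edgeR adjusted p = 2.53e-14), MX1 from 1.9, 2.36 and 1.19 to 7.53, 6.83 and 6.79 CPM (1.96 ± 0.14) and OAS2 from 1.7, 1.76 and 1.4 to 6.15, 5.95 and 5.89 CPM (1.89 ± 0.10). BST2, low in every other cell type, was at 16.5, 19.4 and 18.2 CPM in control HUVEC and at 39.3, 35.8 and 36.9 CPM after radiation (1.05 ± 0.05). USP18 fell from 41, 43.7 and 43.8 to 28.8, 28 and 28.3 CPM (-0.59 ± 0.04) and ISG20 from 3.13, 3.53 and 3.31 to 2.45, 2.17 and 1.97 CPM (-0.59 ± 0.11). The call for ISG20 ended in the fit of all 37 libraries (-0.60, adjusted p = 0.146), in which 20 members were higher and 1 lower in HUVEC.

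IMR-90 showed a mixed pattern, with members called in both directions and the PARP9-DTX3L genes lower in both comparisons. After radiation TRIM22 went from 23.9 and 25.8 to 81.7 and 82.6 CPM (1.72 ± 0.07, edgeR adjusted p = 1.73e-10), ISG15 from 17.6 and 20.6 to 48.2 and 53.3 CPM (1.41 ± 0.09) and IFIT2 from 4.1 and 4.61 to 10.8 and 10.5 CPM (1.29 ± 0.11). ISG20 fell from 4.38 and 4.59 to 0.956 and 0.7 CPM (-2.43 ± 0.18), IFITM1 from 41.4 and 42.7 to 13.3 and 14.2 CPM (-1.62 ± 0.07) and IFI35 from 5.66 and 5.78 to 2.34 and 2.89 CPM (-1.13 ± 0.15). Of the 14 effectors 9 were higher and 3 lower, beside 26.6% and 22.5% of all genes, so the lower share was near that of all genes. Lower were also 3 of 3 PARP9-DTX3L genes and 2 of 5 sensing and signalling genes. STAT2 was among the latter (159 and 150 to 75.1 and 79.5 CPM, -1.0 ± 0.07).

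Late-passage IMR-90, compared with the same proliferating libraries, had 9 members higher, a share close to the background, and 18 lower. TRIM22 reached 91.9 and 79.4 CPM (1.78 ± 0.07), SAMD9L went from 9.21 and 11.1 to 27.7 and 39.3 CPM (1.72 ± 0.13) and ISG15 reached 39.3 and 34 CPM (0.94 ± 0.09). ISG20 fell to 0.406 and 0.516 CPM (-3.29 ± 0.20), IFITM1 to 11.7 and 13 CPM (-1.77 ± 0.07) and IFI35 to 1.61 and 2.16 CPM (-1.60 ± 0.15). The IFI group had 5 of 8 lower and 1 higher, and the PARP9-DTX3L group 3 of 3 lower (all genes 23.5% lower and 26.6% higher). MX1 and IFI6, higher after radiation by 1.14 ± 0.15 and 0.70 ± 0.08, were at -0.05 ± 0.16 (not called) and -0.29 ± 0.09 in late passage.

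Across the 9 comparisons 10 members were higher in 7 or more. The counts across comparisons in this paragraph were not made over all genes, so whether they set the members apart was not tested. ISG15 was higher in 8, all but the doxorubicin repeat, and OASL, MX1, RSAD2, TRIM22, SAMD9L, HERC5, HERC6, IFI6 and EPSTI1 in 7. ISG20 was never higher and was lower in 5: both endothelial types, both IMR-90 comparisons and HRAS. USP18 was lower in 4 and higher in 3, the latter all in the second WI-38 set. DTX3L was higher in 5 and lower in 4. In all, 24 members were called in both directions: IFIH1, DDX60, STAT2, IRF9, IFIT1, IFITM1, OAS3, MX1, MX2, BST2, TRIM22, GBP1, UBE2L6, USP18, PARP9, DTX3L, PARP14, IFI6, IFI35, IFI44, IFI44L, XAF1, EPSTI1 and LGALS3BP. The other 15 that were higher somewhere were never lower. GBP1 was higher in HAEC and both IMR-90 comparisons and lower with doxorubicin and HRAS in the first WI-38 set.

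Per kilobase of exon, which allows levels of different genes to be set side by side, ISG15 led the members with HRAS at 49.1 CPM per kb, with STAT2 next at 9.65 and IFI6 at 9.21. With the empty vector the order was ISG15 at 31.6, STAT2 at 22.6 and IFI6 at 16.9 CPM per kb. In doxorubicin cells of the same set IFI6 at 35.3 and ISG15 at 33.9 CPM per kb were close. IFI6 led in the treated groups of the second WI-38 set, at 560 CPM per kb after radiation, 345 in the doxorubicin repeat and 254 in late passage, and in irradiated HAEC at 53.5. ISG15 led in irradiated (53.9) and late-passage (38.9) IMR-90 and BST2 in irradiated HUVEC (33.4 CPM per kb). These are levels, with no test.

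The genes that start and carry the interferon signal were read from separate lists of ligands, receptors, feedback inhibitors, sensors, nucleases and chemokines. IFNB1, the type I interferon of fibroblasts, had no count in any HAEC, HUVEC or first-set WI-38 library, which allows up to 3 counts in each. It had 14 and 44 counts in irradiated WI-38 (0.0515 and 0.13 CPM) and none in its control, at least 9.36-fold higher, and 16 and 14 counts in late-passage WI-38 (0.0578 and 0.0419 CPM) and none in proliferating cells, at least 3.9-fold higher. Both calls ended without single libraries. In the doxorubicin repeat it was at 0.0248 and 0.0203 CPM in the control and 0.0462 and 0.0555 CPM in treated cells (edgeR adjusted p = 0.689). In IMR-90 it was 0 or at most 0.0373 CPM and was not tested. With HRAS the ligand that rose was IFNE, an interferon of epithelia, from 0.445 and 0.512 to 4.88 and 4.09 CPM (3.23 ± 0.23, adjusted p = 3.52e-07). The counts of IFNA1, the other tested ligand and also called higher, are uncertain, since 62.4% of its stretches of 31 bases are shared with other genes. IFNL1 was the ligand lower in irradiated WI-38, from 66 and 77 counts to 0 in both libraries, at least 23.4-fold, a call that DESeq2 did not make (adjusted p = 0.237).

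Of the feedback inhibitors, which end the signal, 2 of 6 were higher and 2 lower with HRAS, beside 27.1% and 18.9% of all genes. SOCS3 rose from 33.6 and 41.9 to 114 and 122 CPM (1.64 ± 0.14, edgeR adjusted p = 1.49e-06) and SOCS1 fell from 7.3 and 9.08 to 1.19 and 1.46 CPM (-2.63 ± 0.20). In IMR-90, 4 of 6 were lower in each comparison: SOCS3 fell from 276 and 212 to 31 and 32.3 CPM after radiation (-2.95 ± 0.10) and to 25.5 and 25.1 CPM in late passage (-3.27 ± 0.10), and SOCS1 by -2.79 ± 0.14 and -2.89 ± 0.14. Of all genes in IMR-90, 22.5% were lower after radiation and 23.5% in late passage. HAEC had 2 of 6 lower (all genes 19.9%) and HUVEC 1 higher (all genes 18.7%). In late-passage WI-38 SOCS1 (-2.86 ± 0.40), CISH (-1.49 ± 0.32) and PTPN2 (-0.72 ± 0.19) were lower.

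The pathway lists hold 9 or fewer tested genes each, and their counts are descriptions beside the shares of all genes called in each comparison. Of the interferon receptors and kinases, 3 of 8 were higher with HRAS, beside 27.1% of all genes. HAEC had 4 higher and 2 lower of 8 (all genes 19.7% and 19.9%), and HUVEC 4 and 1 (all genes 18.7% and 20.1%). IFNGR1, the receptor chain that binds interferon gamma, rose from 31.9 and 32 to 49.4, 52.4 and 51.9 CPM in HAEC (0.68 ± 0.04) and by 0.36 ± 0.04 in HUVEC. JAK1 was lower in HAEC (-0.51 ± 0.03). In IMR-90, 3 were higher and 3 lower after radiation (all genes 26.6% and 22.5%). Late passage had 4 higher and 2 lower (all genes 26.6% and 23.5%), IFNGR2 among the higher (0.48 ± 0.06). WI-38 had 4 higher and 1 lower of 8 in the first doxorubicin experiment (all genes 13.6% and 13.2%). Of 9, 2 were higher in the repeat (all genes 3.18%), 4 higher after radiation (8.89%) and 2 lower in late passage (6.82%).

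Of the nucleic acid sensors outside the 40, 1 of 8 was higher and 2 lower with HRAS, beside 27.1% and 18.9% of all genes. DHX58 (LGP2), a partner of MDA5, fell from 3.17 and 3.4 to 0.698 and 0.639 CPM (-2.29 ± 0.18, edgeR adjusted p = 8.06e-07), whereas it rose in irradiated WI-38 from 1.69 and 1.81 to 8.67 and 9.97 CPM (2.41 ± 0.27). STING1 rose in HUVEC (0.67 ± 0.06) and in IMR-90 (0.85 ± 0.10 after radiation and 1.02 ± 0.10 in late passage), and RIGI in HAEC (0.77 ± 0.05) and IMR-90 (0.75 ± 0.07 and 0.68 ± 0.07). CGAS, the DNA sensor upstream of STING, was lower in HUVEC (-0.72 ± 0.06), the first doxorubicin experiment (-1.60 ± 0.23) and irradiated WI-38 (-1.16 ± 0.30). It was also lower with the empty vector than in the doxorubicin control (-1.61 ± 0.23). Only comparisons in which CGAS was among the 3 lower pathway genes with the smallest adjusted p are named. IFI16 fell in IMR-90 (-1.06 ± 0.06 and -1.34 ± 0.06) and in the first doxorubicin experiment (-0.65 ± 0.15). TLR3 rose from 0.333 and 0.275 to 3.26 and 2.8 CPM in the first doxorubicin experiment (3.31 ± 0.25) and by 2.13 ± 0.29 and 1.52 ± 0.29 in the repeat and in late-passage WI-38. Sensors higher and lower were 6 and 1 of 8 in HAEC (all genes 19.7% and 19.9%) and 5 and 1 in HUVEC (18.7% and 20.1%). They were 4 and 3 in each IMR-90 comparison (26.6% and 22.5% after radiation, 26.6% and 23.5% in late passage). In the first doxorubicin experiment they were 2 and 2 (13.6% and 13.2%).

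RNASEH2A, the catalytic subunit of an RNase whose loss releases DNA to cGAS, belongs to the list of nucleases and editors; 45.5% of its stretches of 31 bases are shared with other genes and it overlaps THSD8 on the same strand, so its counts are uncertain. RNASEH2A fell with HRAS from 20.1 and 22.4 to 6.55 and 6.01 CPM (-1.76 ± 0.14), in the first doxorubicin experiment from 31.6 and 35.6 to 5.92 in both libraries (-2.50 ± 0.14), in irradiated WI-38 (-1.67 ± 0.22), in HAEC (-0.96 ± 0.04) and in HUVEC (-0.35 ± 0.04), and it rose in irradiated (1.19 ± 0.09) and late-passage IMR-90 (0.71 ± 0.09). The whole list had 1 higher and 3 lower of 7 with HRAS (all genes 27.1% and 18.9%) and 1 and 4 in HAEC (19.7% and 19.9%). It had 2 and 3 in HUVEC (18.7% and 20.1%) and in irradiated IMR-90 (26.6% and 22.5%). RNASEH2B was lower in HAEC (-0.71 ± 0.06) and HUVEC (-0.37 ± 0.05). The chemokines CXCL10 and CXCL11, which draw T cells and are classic interferon targets, both rose with HRAS, against the fall of most members: CXCL10 went from 0.177 and 0.0853 to 1.62 and 1.29 CPM (3.44 ± 0.33), and CXCL11 from no count to 0.166 and 0.116 CPM, at least 7.34-fold. CXCL10 also rose in irradiated WI-38, from 0.171 and 0.266 to 25.7 and 30.8 CPM (7.03 ± 0.75), and reached 4.36 and 4.9 CPM in the first doxorubicin experiment (4.48 ± 0.32).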

How the data were processed

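RNA from 37 libraries was depleted of ribosomal RNA, made into cDNA and sequenced, per the labels' protocols. The deposited values are raw counts per Ensembl gene, made by the authors with cutadapt, STAR 2.4 and featureCounts on hg 19, per the submitters' processing notes; strandedness is not given in the sources used here. Identifiers were paired with symbols through the Ensembl name table supplied (51996 matched) and GENCODE 29.

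Each set of libraries was fitted alone with edgeR 4.0.16 in R 4.3.3 (filterByExpr, TMM, quasi-likelihood test, Benjamini-Hochberg adjustment over all genes tested, threshold 0.05); differences between responses were fitted over the sets they span. The SE of a log2 fold change was taken as its size over the root of the F statistic. Levels in CPM are counts over the TMM effective library size of that set. The fits were tested on simulated data. A fold against libraries without a count used a floor of 3 counts per library. Markers of fibroblasts, endothelium, epithelium and leukocytes and pathway lists were read alongside; 1 gene that the naming rule includes, and its list, are not reported here.

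The members and lists were chosen with earlier results of these data known. Named with values were, per comparison, the 3 members called highest and the 3 lowest with an average log2 CPM of at least 0, for differences the 3 on each side with the smallest adjusted p, up to 3 pathway genes per direction and IFNB1; members that bear on these and on the HRAS contrast were named after their values were seen. Alternatives were DESeq2 1.42.0, other scalings, filters, sample sets, a replicate block and leaving out each library. IKBKE, CCL5 and PECAM1 had no match and are not analysed here.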

Additional observations from a re-analysis of the deposited data

Results flagged for a closer look

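Each of the 8 tests of the HRAS response against another response gave members that differed by the edgeR test of the difference itself. These 8 tests share the HRAS and empty vector libraries. Against the first doxorubicin experiment 27 members were lower in the HRAS response (all genes 14%), and against its repeat 29 (all genes 8.6%). In WI-38, 36 were lower against radiation (8.48%) and 31 against late passage (8.29%). For IMR-90 the counts were 22 against radiation (15.1%) and 17 against late passage (16.2%). They were 32 against irradiated HAEC (17.8%) and 26 against irradiated HUVEC (18.2%). All pairs but the first also differ in library set, and those with IMR-90, HAEC and HUVEC in cell type too.

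In log2, the HRAS response minus the first doxorubicin response was 1.52 for SAMD9, 1.11 for OASL, -3.27 for IFI6, -2.23 for LGALS3BP and -1.88 for PARP14. The OASL difference ended under 7 alternatives. Against the doxorubicin repeat it was -4.75 for IFITM1, -4.28 for IFI6 and -3.36 for DTX3L. Against irradiated WI-38 it was -7.10 for IFI6, -5.53 for IFITM1 and -4.61 for HERC6. Against late-passage WI-38 it was -4.76 for both IFITM1 and IFI6 and -3.19 for DTX3L.

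Against irradiated IMR-90 the difference was 1.48 for ISG20, 0.94 for SAMD9, 1.25 for IFI44L, -3.28 for GBP1, -2.84 for TRIM22 and -1.77 for DTX3L. Against late-passage IMR-90 it was 2.34 for ISG20, 0.74 for SAMD9, 1.68 for IFI44L, -3.54 for GBP1, -2.90 for TRIM22 and -1.59 for DTX3L. IFI44L against irradiated IMR-90 ended under 9 alternatives and SAMD9 against late passage under 3.

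Against irradiated HAEC the difference was 1.06 for SAMD9, 0.96 for ISG20, -4.67 for LGALS3BP, -2.48 for DTX3L and -3.17 for GBP1. Against irradiated HUVEC it was 1.04 for SAMD9, 2.56 for OASL, 3.43 for CMPK2, -2.52 for DTX3L, -3.81 for IFITM1 and -2.30 for PARP14. ISG20 against HAEC lost its call in the fit of all 37 libraries and without HRAS replicate 1, OASL against HUVEC without HUVEC control replicate 3, and CMPK2 under 2 alternatives. CMPK2 was near 0, at 0.00265 CPM per kb with the empty vector and 0.0202 with HRAS. Its difference thus rests on few reads, which may not be separate from those of RSAD2 on the opposite strand.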

How the results depend on the processing

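Of the counts of members called, 451 values under an alternative lay within 1.5 times the reported count and 43 did not. Values of named genes and medians of the members were tallied together. Of these, 1370 were unchanged, meaning a gene kept its call or a median stayed within the median SE of the members. A further 36 gene values lost their call, 11 medians moved and 0 values turned direction. The cause of these changes was not tested. In a fit of all 37 libraries, 1 member each was lower in HAEC and HUVEC, 7 in irradiated IMR-90 and 2 in late-passage WI-38, and 1 was higher in the HRAS response against both doxorubicin experiments, late-passage WI-38, both IMR-90 responses and HAEC. With the compared groups alone, 4 members were lower with doxorubicin (first experiment), 2 higher with HRAS and 1 lower in late-passage WI-38, and 1 and 3 were higher with HRAS against the doxorubicin repeat and late-passage IMR-90. Without a filter 1 member was lower in late-passage WI-38 and 1 higher with HRAS against the doxorubicin repeat, where DESeq2 size factors, the DESeq2 test and the replicate block also gave 1. Protein-coding scaling left 1 higher against the first doxorubicin experiment.

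Leaving out 1 library gave 1 to 1 members lower with doxorubicin (first experiment, any of its 4 libraries), 3 to 7 higher with HRAS (7 without empty vector replicate 1), 0 to 1 lower in irradiated WI-38 (without irradiated replicate 1) and in late-passage WI-38 (without late replicate 1), and 6 to 12 higher with the empty vector against the untreated control. The HRAS response was higher in 1 to 2 members against the first doxorubicin experiment (1 without its control replicate 2, its treated replicate 2, empty vector replicate 1 or either HRAS replicate), 0 to 2 against the repeat (2 without its control replicate 2), 0 to 1 against irradiated and late-passage WI-38 (without treated replicate 1), 2 to 6 against late-passage IMR-90 (2 without HRAS replicate 1, 3 without proliferating or late replicate 2) and 1 to 3 against HAEC (1 without HRAS replicate 1).

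Samples with the same replicate number had deviations that correlated between -0.064 and 0.116, and the numbers are not said to pair them. With the replicate block 35 members were higher in HAEC, and 5 were higher and 22 lower with HRAS. Protein-coding scaling moved the split of all genes, higher and lower, from 7784 and 6582 to 6871 and 7707 in irradiated IMR-90, from 5531 and 5587 to 5638 and 5478 in HAEC, from 5133 and 5522 to 5427 and 5242 in HUVEC, from 3992 and 3876 to 3756 and 4266 in the first doxorubicin experiment, from 7782 and 6879 to 6767 and 8022 in late-passage IMR-90, from 1951 and 2292 to 2297 and 1910 in late-passage WI-38, from 4588 and 6427 to 5941 and 5860 for the empty vector and from 7117 and 6568 to 6052 and 7935 for HRAS against the untreated control. For the HRAS response minus another it went from 6356 and 4105 to 4588 and 5122 (first doxorubicin experiment), 3751 and 3180 to 2634 and 3856 (repeat), 3900 and 3136 to 2594 and 3882 (irradiated WI-38), 3237 and 3066 to 2412 and 3721 (late-passage WI-38), 6992 and 5137 to 5784 and 6037 (irradiated IMR-90), 7515 and 5523 to 6178 and 6426 (late-passage IMR-90), 8096 and 6066 to 6245 and 7719 (HAEC) and 8530 and 6188 to 6426 and 8158 (HUVEC). The median difference over all genes against HUVEC then went from 0.02 to -0.23. With 2 or 3 libraries a group and members near 0 CPM in some groups, small changes may have been missed. The spread between libraries of a group, as a coefficient of variation from the fit, was 5.69% in HAEC and 38.1% in the second WI-38 set. Where the spread was low, changes as small as that of USP18 in HAEC (-0.28 ± 0.05) were called.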

Other observations

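The control cultures of the second WI-38 set differed among themselves in the level of these genes. The 2 controls of the radiation experiment had MX1 at 0.905 and 1.45 CPM, against 13.9 and 10.5 CPM in the doxorubicin control and 10.9 and 11.5 CPM in proliferating cells, all labelled PDL 25. OAS1 was at 0.0462 and 0.0287 CPM against 1.08 and 0.854 CPM and 0.818 and 0.779 CPM. IFIT1 was at 21.3 and 19.3 CPM against 104 and 83.1 CPM and 98.7 and 95.7 CPM. OAS1 after treatment lay closer together, at 31.7 and 41.6 CPM after radiation, 33.7 and 17 CPM in the doxorubicin repeat and 28.4 and 20.6 CPM in late passage. These levels were not tested against each other.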
